A study of Mus musculus with 8 samples.

Results

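Spots outside muscle were compared between 1 CaV1.1 KO section and 2 control sections of the mouse diaphragm at E18.5. Each spot of a Visium array reads the RNA of a small region that holds several cells, and neighbouring spots lie 100 µm apart. A spot was kept with at least 1000 UMIs (counted molecules) and taken as outside muscle when its mean log1p level, per 10000 UMIs, of 9 muscle genes (the thin-filament genes *Acta1* and *Tnnt3*, the light chains *Myl1* and *Mylpf*, the scaffold genes *Ttn*, *Neb* and *Actn2*, and *Des* and *Ryr1*) lay at or below the Otsu threshold of its own section. Spots in which *Alb* and *Ahsg*, plasma proteins made by the liver, held more than 0.5% of UMIs were dropped, and the UMIs of the spots left were summed per section. The spots were thus chosen by these 11 measured genes, which are not reported as results. This gave 1114 spots of the 7316 kept in the 3 sections, namely 340 in control 1, 326 in control 2 and 448 in the KO. The whole series holds 12771 spots under tissue in 8 sections.

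Control embryos carried at least 1 CaV1.1 allele and at least 1 β-catenin allele that were expressed, so that heterozygotes may be among them. The KO embryo was CaV1.1 -/- (dysgenic) in every cell, and it came either from crosses of CaV1.1 heterozygotes or from crosses that also carried floxed β-catenin and a Cre driven by the human skeletal actin promoter. CaV1.1 is the voltage sensor that couples the action potential of a muscle fiber to contraction, so its loss leaves the diaphragm without active contraction. The gene is active in skeletal muscle fibers, and the tissue described here lies around them. The series also holds 3 control sections and 1 CaV1.1 KO section at E14.5 and 1 β-cat cKO section at E18.5, in which that Cre deletes β-catenin in skeletal muscle. These entered the same fit, mainly to measure the spread between control embryos. Every section came from its own embryo, and the lone KO section had to be assumed to vary as control sections do.

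Tendon cells and fibroblasts lay down the collagen fibers on which muscle pulls. In the diaphragm they form the central tendon, the attachments at the ribs and the sheets around and between muscle fibers. The factor Scleraxis starts the tendon program, Mohawk and TGF-β ligands maintain it, and tenomodulin, fibromodulin, keratocan, COMP and thrombospondin-4 belong to the matrix that is laid down as a tendon matures. Load from contracting muscle is known to sustain this program in limbs and trunk. Pleural and peritoneal surfaces of the diaphragm are covered by mesothelium, and the sheet also holds vessels, nerves, resident macrophages and, beside the ribs, cartilage.

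The gene lost in the KO was read first. *Cacna1s* (GRCm38 chromosome 1:136052750-136119822), which encodes CaV1.1, stood in muscle spots at 85.1 and 87.3 CPM in the controls and at 29.6 CPM in the KO section. There it was lower by a log2 fold change of −1.54 (adjusted p = 8.1e-04, edgeR's quasi-likelihood test with Benjamini-Hochberg adjustment, as for all adjusted p-values here). Outside muscle it stood at 27.5 and 18.7 CPM in the controls and at 12.5 CPM in the KO section, with a log2 fold change of −0.88 ± 0.44 (SE) that did not pass the test. The list of muscle genes beyond the 9 of the rule, which holds *Cacna1s*, had medians of −1.26 in muscle and −0.90 outside muscle. Its values were thus near those of muscle genes in general. CPM are UMIs per 1000000 of a section's summed UMIs, scaled by TMM for single genes and not scaled further for sums over a list.

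Spots outside muscle made up 9.83% of kept spots in control 1 (exact Clopper-Pearson 95% interval 8.85 to 10.9), 12.9% in control 2 (11.6 to 14.3) and 33.7% in the KO section (31.1 to 36.3). These intervals cover counting error only, and the KO share stood above both controls. The share follows from the 9 genes of the rule and from each section's own threshold. It describes the choice of spots and is no result on the KO. The KO section was smaller, with 797 muscle spots against 3062 and 2199 in the controls. Of the spots at or below the threshold, 28, 0 and 70 were dropped for *Alb* and *Ahsg* in control 1, control 2 and the KO section. The Otsu thresholds were 3.79 in control 1, 3.58 in control 2 and 3.18 in the KO section. With the lowest of these in all 3 sections, 105, 222 and 448 spots lay outside muscle. The last score inside and the first outside the threshold were 3.79388 and 3.80343 in control 1, 3.58281 and 3.58453 in control 2, and 3.17525 and 3.18644 in the KO section. A median spot outside muscle held 17353, 20185 and 12639 UMIs, and the sums per section were 6304698, 6902476 and 6604369 UMIs. The depth behind the summed values was thus nearly even.

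**Figure D1:**
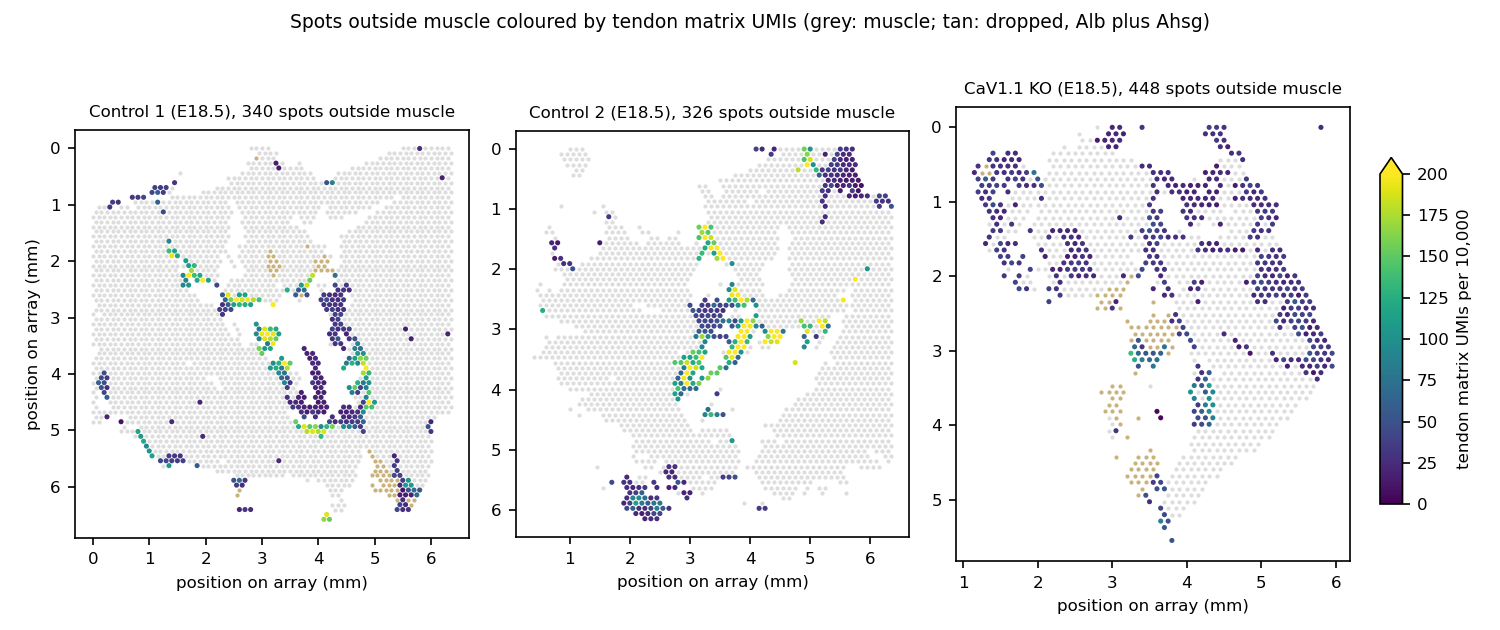
Map of the 3 E18.5 sections with position on the array in mm; each dot is a spot, grey dots are muscle, tan dots were dropped for *Alb* plus *Ahsg*, and coloured dots are the spots outside muscle by summed UMIs of 15 tendon matrix genes per 10000 UMIs. Spots at 100 or more number 101 and 117 in the controls and 5 in the KO section.

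The label of the spots was checked against markers. Tendon, fibroblast, cartilage, mesothelium and macrophage markers were all detected outside muscle in the 3 sections, except *Matn1* of cartilage, at 0 in the KO section. They were also detected in muscle spots, so detection alone does not set the spots apart. Each of these lists summed higher outside muscle than in muscle in every section. Tendon markers stood at 4453, 4934 and 1458 CPM outside muscle and at 606, 785 and 598 CPM in muscle. The gap was narrow for cartilage in control 1, at 1700 against 1106 CPM. Muscle RNA was not absent. Skeletal muscle genes other than the 9 of the rule summed to 49336, 32092 and 26925 CPM outside muscle in control 1, control 2 and the KO section, against 129402, 127950 and 82576 CPM in muscle. Their median log2 fold change was −0.90 over 28 genes, of which 1 passed, *Myh4*, the fastest adult myosin heavy chain, at 64 and 54.7 CPM in the controls and 357 CPM in the KO section. Muscle RNA in sum was lowest outside muscle in the KO section, and its part in the results below was not tested. A sum over spots cannot tell fewer cells of a type from less RNA per cell.

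The sex of the embryos is not given in the sources used here. The Y-linked genes *Ddx3y*, *Uty*, *Kdm5d* and *Eif2s3y* summed to 193 and 162 CPM outside muscle in the controls and to 0 UMIs in the KO section, where a count of 0 allows up to 0.454 CPM. The effect of sex and that of genotype cannot be told apart in these sections. The 12 hepatocyte genes, which include *Alb* and *Ahsg* beside such as *Trf* and *Apoa1*, summed to 590, 62.3 and 945 CPM. These values are for control 1, control 2 and the KO section after liver spots were dropped. The limit on *Alb* and *Ahsg* bounds part of this sum, so it is a description only. The share of liver RNA did not enter the fit as a factor. The number of genes that passed the test between KO and control was 69 with the limit used. It was 16 with no liver limit and 100 with a limit of 0.1%.

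Over 14541 genes tested outside muscle, 69 passed at an adjusted p under 0.05, which is 0.475% of those tested. Of these, 30 rose in the KO section (0.206%) and 39 fell (0.268%). The genes that fell are led by cartilage and tendon matrix (*Col2a1*, *Acan*, *Comp*, *Kera*, *Col11a2*). Among them are also the fibroblast marker *Pi16*, the matrix genes *Mfap5* and *Postn*, the secreted *C1qtnf3* and the secreted Wnt inhibitors *Sfrp4* and *Wif1*. Genes that rose include *Igfbp2*, which binds insulin-like growth factors, the basement membrane protein *Nid2* and the adhesion molecule *Alcam*. Of the 69, 59 were more abundant outside muscle than in muscle spots of the same sections (0.511% of 11536 such genes), 27 of them among the risen and 32 among the fallen. An unadjusted p under 0.05 was reached by 2123 genes. The median log2 fold change over all genes tested was −0.01, a value that TMM scaling holds near 0.

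The count rested on few sections. The main fit had 3 residual degrees of freedom, and fits without 1 control section had fewer. The count was 302, 56 and 11 without E14.5 controls 1, 2 and 3. Without control 1 or control 2, 1 section stood against 1 at E18.5, with the spread taken from E14.5 controls alone. The direction of all 69 was kept in each of these fits. The 69 were picked from these data and each fit holds the same KO section, so kept directions are no independent support. Scaled to library totals instead of TMM, 81 genes rose and 37 fell, with the median of all genes shifted by 0.18, so changes are relative to the scaling. A fold rule that needs no estimate of the spread was used beside the test: 533 genes (3.67% of those tested) stood at least 2-fold above both controls in the KO section and 947 (6.51%) at least 2-fold below both. Counts over a list cover those of its genes that passed the filter on low counts, as 11 of 12 for cartilage. In what follows, a gene rose or fell only where it passed the test, and any other gene is given by its values.

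Tendon regulators are taken first. Of 10 tested, 0 passed the test, and 3 stood at least 2-fold below both controls. Their median log2 fold change was −0.54, against −0.01 over all genes. *Scx*, which encodes Scleraxis, stood at 143 and 195 CPM in the controls and at 29.9 CPM in the KO section, a log2 fold change of −2.50 ± 0.46 (adjusted p = 0.0871). *Mkx*, the gene of Mohawk, stood at 74.8, 97.3 and 49.3 CPM. The TGF-β ligand genes *Tgfb3*, at 399, 438 and 298 CPM, and *Tgfb2*, at 162, 150 and 131 CPM, lay closer to the controls. The transcription factor that starts the program thus showed the widest gap of the 4, and the ligand genes the narrowest.

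Tendon matrix was lower throughout. Among 15 genes tested, 2 fell (*Kera* and *Comp*) and 0 rose, 12 stood at least 2-fold below both controls, and the median log2 fold change was −2.84. Summed over the list, levels were 7548 and 8457 CPM in the controls and 3119 CPM in the KO section. *Kera* (GRCm38 chromosome 10:97606879-97613692) encodes keratocan, a proteoglycan that spaces collagen fibrils, and stood at 134 and 154 CPM in the controls against 6.94 CPM in the KO section. It fell by 4.37 on the log2 scale (SE 0.25, adjusted p = 0.00307). *Comp* (chromosome 8:70373558-70382066), whose product helps to assemble collagen fibrils in tendon and cartilage, stood at 52.6 and 77.0 CPM against 2.11 CPM and fell by 4.93 (SE 0.56, adjusted p = 0.0248). For both genes the controls lay close together and the KO section far below them.

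*Tnmd*, tenomodulin, is the classical marker of the differentiated tendon cell. Its level was 1128 and 828 CPM in the controls and 71.5 CPM in the KO section, with a log2 fold change of −3.77 ± 0.62 and an adjusted p of 0.0664. The controls differed from each other by far less than either did from the KO section, but the test was not passed. *Thbs4*, the gene of thrombospondin-4 at the junction of muscle and tendon, stood at 417 and 384 CPM against 19.1 CPM (−4.39 ± 0.66, adjusted p = 0.0509). *Fmod*, fibromodulin, and *Col12a1*, a collagen on the fibril surface, kept more of their level, at 1420, 1668 and 492 CPM and at 822, 868 and 250 CPM.

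**Figure D2:**
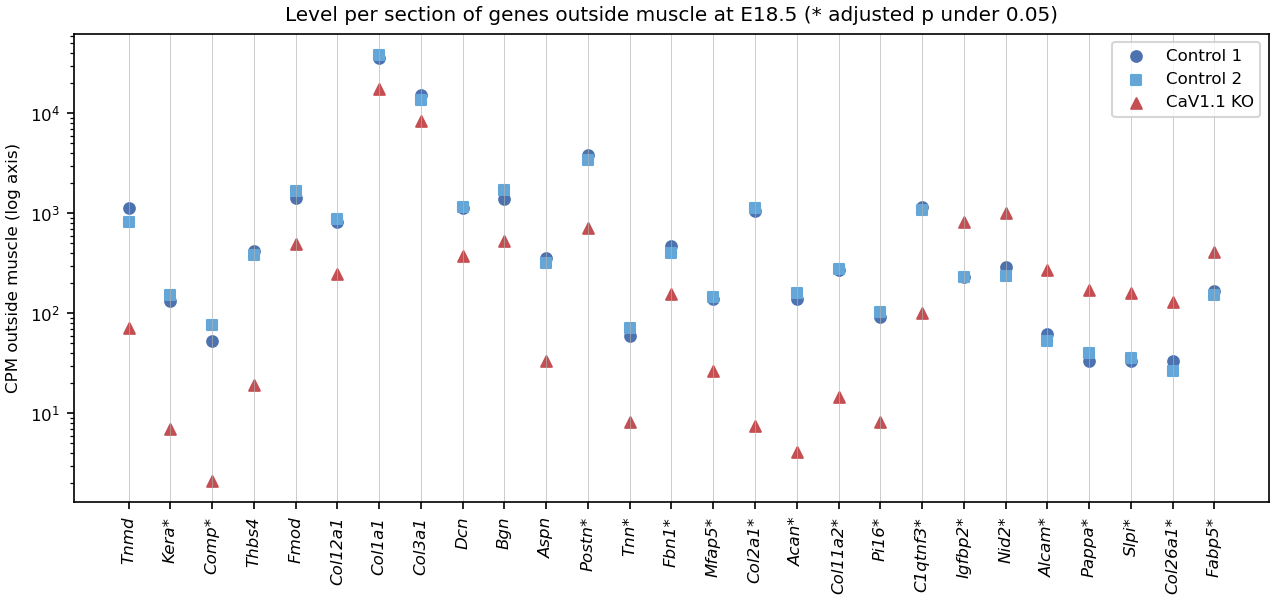
CPM outside muscle on a log axis for 27 genes in control 1 (circles), control 2 (squares) and the CaV1.1 KO section (triangles) at E18.5, 1 point per section and no error bar; an asterisk marks genes that passed the test. Matrix and cartilage genes on the left lie below both controls in the KO section, as *Kera* at 6.94 against 134 and 154 CPM, and those from *Igfbp2* to the right lie above both.

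Collagens outside cartilage numbered 27. Of these, 2 rose, 0 fell, 8 stood at least 2-fold below both controls, and the median was −0.73. The list summed to 77223 and 91724 CPM in the controls and to 48382 CPM in the KO section. Its bulk is fibrillar collagen: *Col1a1* stood at 35610, 38284 and 17717 CPM, a log2 fold change of −1.06 ± 0.37 (adjusted p = 0.272). *Col3a1*, the collagen of loose connective tissue, stood at 15294, 13534 and 8347 CPM. The collagens that rose are minor ones, *Col26a1* (33.7, 26.2 and 131 CPM, log2 fold change 2.13, adjusted p = 0.0210) and *Col6a5* (at most 19.2 CPM in the controls and 66.6 CPM in the KO section, log2 fold change 1.82, adjusted p = 0.0337). Neither adds much to the sum, so total collagen RNA in the KO section followed *Col1a1*, *Col1a2* and *Col3a1*.

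Of 26 genes that process and crosslink collagen, 1 fell and 0 rose, and the median was −0.39. The fallen gene, *Pcolce2*, encodes an enhancer of the protease that trims procollagen, and it stood at 85.7, 72.5 and 8.14 CPM (log2 fold change −3.28, adjusted p = 0.0419). *Serpinh1*, the collagen chaperone, stood at 2427, 2915 and 1937 CPM and did not pass the test. Small leucine-rich proteoglycans bind collagen fibrils and set their width. Of 13 tested, 1 fell (*Kera*, as above), 9 stood at least 2-fold below both controls and the median was −1.62. *Dcn*, decorin, stood at 1143, 1150 and 373 CPM (adjusted p = 0.0589), *Bgn*, biglycan, at 1387, 1722 and 534 CPM, and *Aspn*, asporin, at 359, 319 and 33.6 CPM. *Lum*, lumican, was nearer the controls at 537, 529 and 351 CPM, so the gap differed widely within the family.

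Genes of the elastic fiber were called 3 times of 17, each lower, with a median of −0.60. *Fbn1*, the main fibrillin, stood at 475, 404 and 156 CPM (log2 fold change −1.50, adjusted p = 0.0486), *Mfap5*, a microfibril protein, at 139, 147 and 26.5 CPM (−2.43, adjusted p = 0.0343), and *Emilin2* at 135, 125 and 53.1 CPM (−1.29, adjusted p = 0.0411). *Ltbp2*, a microfibril gene as well, went the other way at 51.1 and 62.2 CPM in the controls and 433 CPM in the KO section, though it did not pass the test (adjusted p = 0.0765). Matricellular proteins sit in the matrix and signal to cells. Of 24 tested, 3 fell (*Comp*, *Tnn* and *Postn*) and 0 rose, 13 stood at least 2-fold below both controls, and the median was −1.14. *Postn* (GRCm38 chromosome 3:54361109-54391037), periostin, stood at 3840 and 3423 CPM in the controls and at 721 CPM in the KO section and fell by 2.33 (SE 0.34, adjusted p = 0.0493). *Tnn*, tenascin-N, stood at 58.8, 71.6 and 8.14 CPM and fell by 3.0 (SE 0.40, adjusted p = 0.0408). Of matrix proteases and their inhibitors, 0 of 27 passed the test and the median was −0.23.

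The promoters of *Kera*, *Tnn* and *Postn*, 1 gene from each of the proteoglycan, tenascin and periostin families that fell, are shown from 250 bases before to 50 bases after the start given by RefSeq on GRCm38.p6. Capitals mark a match to GGAATG, the core that TEAD factors, the partners of Yap, bind, read on both strands. *Kera* lies at chr10:97606955-97607254 on the plus strand, *Tnn* at chr1:160153526-160153825 on the minus strand and *Postn* at chr3:54360857-54361156 on the plus strand, the second of its 2 listed starts.
Kera: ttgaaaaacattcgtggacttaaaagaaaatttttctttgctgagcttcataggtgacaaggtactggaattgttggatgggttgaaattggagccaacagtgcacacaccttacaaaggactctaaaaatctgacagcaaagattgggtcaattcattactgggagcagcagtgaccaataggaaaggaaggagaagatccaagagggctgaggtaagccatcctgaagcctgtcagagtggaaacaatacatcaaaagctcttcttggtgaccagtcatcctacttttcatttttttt
Tnn: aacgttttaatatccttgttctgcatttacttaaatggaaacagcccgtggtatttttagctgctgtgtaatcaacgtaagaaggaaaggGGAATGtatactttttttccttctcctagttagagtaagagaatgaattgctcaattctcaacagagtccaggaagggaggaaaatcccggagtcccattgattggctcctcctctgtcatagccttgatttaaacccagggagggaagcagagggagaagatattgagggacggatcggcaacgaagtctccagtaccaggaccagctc
Postn: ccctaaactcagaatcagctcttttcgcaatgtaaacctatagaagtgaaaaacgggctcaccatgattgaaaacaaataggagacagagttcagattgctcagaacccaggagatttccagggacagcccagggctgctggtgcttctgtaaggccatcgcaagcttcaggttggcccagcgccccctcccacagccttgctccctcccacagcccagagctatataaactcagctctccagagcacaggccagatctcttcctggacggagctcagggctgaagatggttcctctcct

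GGAATG occurs in 14.7% of all 32851 promoters of this length. It was found in 4 of 37 promoters of genes that fell (*Acan*, *C1qtnf3*, *Emilin2* and *Tnn*), in 8 of 27 promoters of genes that rose, and in 1 of 11 tendon matrix promoters (*Thbs4*). In *Tnn* it begins at base −160. The AP-1 motif TGANTCA, found in 7.81% of all promoters, was in 1 of 37 promoters of fallen and 2 of 27 of risen genes. The CArG box, the site of SRF, was in 1.63% of all promoters, in 3 of 37 of fallen genes (*Cited1*, *Fhl1* and *Lurap1l*) and in 1 of 27 of risen genes. These are matches of letters within the window, with a table entry for 29 of the 39 genes that fell and 21 of the 30 that rose.

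Cartilage genes were low in the KO section. Of 11 tested, 3 fell and 0 rose, 10 stood at least 2-fold below both controls, and the median was −4.23. *Col2a1* (GRCm38 chromosome 15:97975602-98004695), the main collagen of cartilage, stood at 1053 and 1119 CPM in the controls and at 7.54 CPM in the KO section. It fell by 7.17 (SE 0.99, adjusted p = 0.0422). *Acan*, aggrecan, stood at 138, 159 and 4.07 CPM and fell by 5.18 (SE 0.28, adjusted p = 0.00307), and *Col11a2* stood at 272, 278 and 14.6 CPM and fell by 4.23 (SE 0.31, adjusted p = 0.0101). Spots with at least 20 cartilage UMIs per 10000, a limit set after the values were seen, numbered 55 of 340 and 77 of 326 in the controls and 1 of 448 in the KO section. How much rib cartilage each section took in was not tested. Without the 20% of spots richest in cartilage RNA, 28 genes passed instead of 69. The 20% were taken over the pooled spots, which left 242 of 340 and 206 of 326 spots in the controls and 443 of 448 in the KO section. The removal thus fell almost only on the controls. The cartilage median was then −1.55, that of tendon matrix −1.79, of collagens −0.42 and of tendon regulators −0.32. The spots were removed by UMIs of the same cartilage list. Its median there, and its order beside tendon matrix, are thus no separate result.

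Fibroblast markers differed among themselves. Of 17 tested, 2 fell and 0 rose, 5 stood at least 2-fold below both controls and 1 at least 2-fold above, and the median was −0.18. Their sum was 2209 and 2378 CPM in the controls and 1486 CPM in the KO section. *Pi16*, which marks a fibroblast that resides around vessels and between tissues, stood at 91.3, 104 and 8.14 CPM (log2 fold change −3.58, adjusted p = 0.0179), and *Cd34*, found on fibroblasts and endothelium, at 306, 288 and 107 CPM (−1.47, adjusted p = 0.0345). *Pdgfra*, the receptor that most connective tissue fibroblasts carry, stood at 123, 137 and 138 CPM. The most abundant markers were *Sulf1*, a heparan sulfatase, at 576, 279 and 324 CPM, *Clec3b*, tetranectin, at 609, 918 and 157 CPM (log2 fold change −2.28, adjusted p = 0.296), and *Dpt*, dermatopontin of the matrix, at 400.4, 435 and 246 CPM (−0.76, adjusted p = 0.326). *Clec3b* and *Dpt* thus lay below both controls without passing the test, *Pdgfra* lay just above them and *Sulf1* between them.

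Further secreted genes fell that belong to none of the lists above. *C1qtnf3*, a secreted protein of the complement C1q family, stood at 1162 and 1068 CPM in the controls and at 102 CPM in the KO section (log2 fold change −3.45, adjusted p = 0.0190). *Spon2*, a spondin, stood at 105, 101 and 9.65 CPM, *Scube2*, which releases hedgehog ligands from cells, at 113, 93.4 and 9.80 CPM, and *Egfl6*, a matrix protein with EGF repeats, at 127, 105 and 22.3 CPM. Among genes outside the naming rule, *Has2*, which makes hyaluronan, and *Cd44*, its receptor, both fell, from 18.2 and 18.7 to 3.62 CPM and from 246 and 283 to 76.3 CPM. *Ankrd2*, *Smtnl1* and *Fhl1*, genes of striated muscle, were also among the 39 that fell.

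TGF-β and BMP signaling genes gave no call among 36, with 7 at least 2-fold below both controls and a median of −0.26. *Fstl1*, a secreted antagonist of this family, stood at 925, 1101 and 391 CPM (adjusted p = 0.0949). Of 26 genes of Yap, Srf and mechanosensing, 0 passed the test, and the median of −0.04 was close to the −0.01 of all genes. Within that list the actin crosslinker *Flna* stood at 493, 513 and 541 CPM and the focal adhesion protein *Zyx* at 372, 487 and 466 CPM, whereas *Ccn2*, a Yap target, stood at 412, 584 and 184 CPM (adjusted p = 0.110) and *Ccn1* at 214, 364 and 142 CPM. Of the 26, 0 stood at least 2-fold above both controls and 2 at least 2-fold below both, against 3.67% and 6.51% of all genes tested.

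Immediate early genes respond to stimulation within minutes. Of 15 tested, 0 passed, 6 stood at least 2-fold below both controls, and the median was −0.99. *Jund* stood at 1017, 1048 and 481 CPM and *Jun* at 181, 298 and 99.7 CPM. In Wnt signaling, 2 of 28 genes fell and the median was 0.02: the inhibitors *Sfrp4* (22.7, 19.3 and 0.754 CPM, log2 fold change −4.77, adjusted p = 0.0179) and *Wif1* (17.5, 27 and 1.36 CPM, −4.02, adjusted p = 0.0419). *Axin2*, a feedback target of the pathway, stood at 68.8, 60.3 and 97.9 CPM and did not pass. Of 19 FGF signaling genes and 14 heat shock and stress genes, 0 passed, with medians of −0.33 and 0.02. Chemokine and complement genes had 0 calls of 16 and a median of −0.55.

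**Figure D3:**
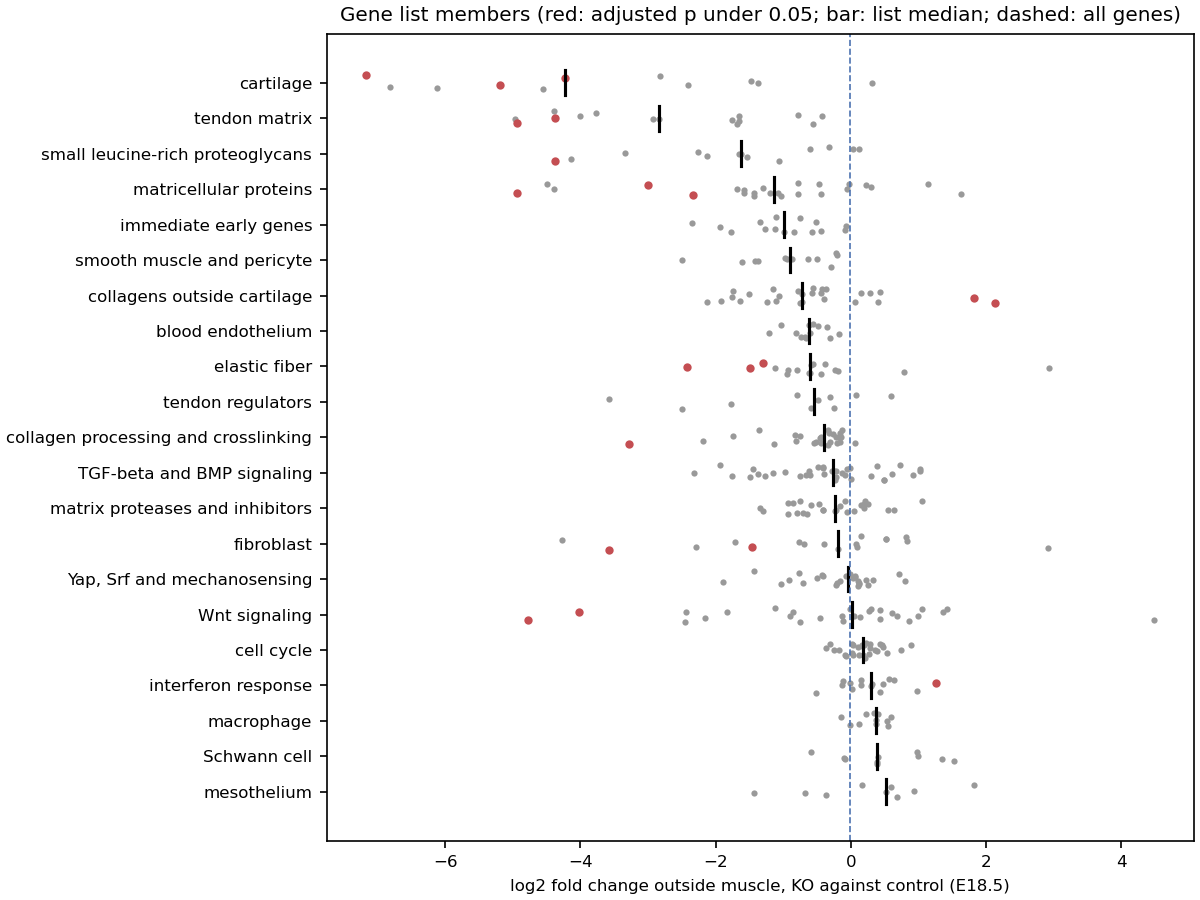
Log2 fold change outside muscle, KO against control at E18.5, for the members of 21 gene lists; each dot is a gene, red dots passed the test, the black bar is the median of the list and the dashed line the median of all genes tested (−0.01). Medians run from −4.23 for cartilage and −2.84 for tendon matrix to 0.52 for mesothelium.

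The genes that rose were of other kinds. *Igfbp2* (GRCm38 chromosome 1:72824503-72852474), which binds insulin-like growth factors in the fetal circulation and tissues, stood at 233 and 232 CPM in the controls and at 810 CPM in the KO section. It rose by a log2 fold change of 1.80 (SE 0.23, adjusted p = 0.0408). *Pappa*, a protease that cleaves such binding proteins, stood at 33.3, 39.9 and 172 CPM (log2 fold change 2.23, adjusted p = 0.0190). In the list of insulin-like growth factors and imprinted growth genes, *Igfbp2* was the only one of 18 to pass, and the median was −0.19. *Dlk1*, an imprinted growth regulator, stood at 4142, 4819 and 5348 CPM.

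*Nid2*, nidogen-2 of basement membranes, rose from 292 and 234 CPM to 1001 CPM (log2 fold change 1.93, adjusted p = 0.0408). *Alcam*, an adhesion molecule of mesothelial and mesenchymal cells, rose from 62.3 and 53.1 CPM to 269 CPM (2.22, adjusted p = 0.0179). The protease inhibitors *Slpi*, at 33.5, 35.5 and 159 CPM, and *Spint2*, at 31.6, 23.3 and 133 CPM, rose by 2.20 and 2.28. *Tmem108* stood at 27.2, 17.5 and 182 CPM (3.03, adjusted p = 0.0345), *Mrvi1* at 25.7, 37.6 and 118 CPM, *Etl4* at 43.1, 41.2 and 138 CPM and *Gm266* at 20.3, 20.1 and 59.7 CPM. *Krt15*, a keratin of stratified epithelium, passed at 0.372, 0.482 and 4.82 CPM. Its level was low in the 3 sections compared, and it met the limit on mean level through the β-cat cKO section, where it stood at 4414 CPM.

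*Adm*, adrenomedullin, was the only one of 17 genes of hypoxia and glycolysis to pass (36.1, 41.0 and 93.5 CPM, log2 fold change 1.28, adjusted p = 0.0422). *Oasl2*, induced by interferon, was the only one of 15 in its list (68.1, 77.7 and 174 CPM, 1.26, adjusted p = 0.0464). Of 29 cell cycle genes, 0 passed, 0 stood 2-fold beyond both controls in either direction and the median was 0.18. The proliferation marker *Mki67* stood at 203, 173 and 226 CPM.

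Other cell types outside muscle are given by their marker lists, none of which had a called gene unless named. Macrophage markers summed to 952 and 1052 CPM in the controls and to 1465 CPM in the KO section, with a median log2 fold change of 0.37 over 11 genes, 0 of them 2-fold beyond both controls. *C1qa*, a complement gene of resident macrophages, stood at 229, 264 and 373 CPM (adjusted p = 0.198). Schwann cell markers summed to 161, 222 and 348 CPM, with a median of 0.39 over 10 genes. Of these, 7 stood above both controls and 1 below both. *Mbp*, a myelin gene, stood at 42.6, 59.8 and 130 CPM (adjusted p = 0.124). Its log2 fold change was 1.35, against 0.98 for *Erbb3* and −0.08 for *Ngfr*. Blood endothelium had a median of −0.62 over 13 genes, as for *Cdh5* at 264, 268 and 173 CPM. Smooth muscle and pericyte markers had a median of −0.90 over 12 genes, and their *Acta2* stood at 290, 391 and 177 CPM. Erythrocyte genes summed to 632, 952 and 535 CPM. Medians were 0.21 over 6 lymphatic endothelium genes, 0.24 over 14 of other leukocytes, −0.44 over 7 of adipocytes, 0.39 over 7 of bone and 1.03 over 6 of lung and gut epithelium, and 0 of these passed. In sum, macrophage, Schwann cell and lymphatic endothelium markers (the last at 305, 304 and 405 CPM) were thus somewhat above both controls. Blood endothelium and smooth muscle markers were below both. No gene of these lists passed, and the sums were not tested.

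Mesothelium differed widely between the controls themselves. Its markers summed to 863 and 304 CPM in the controls and to 1099 CPM in the KO section. *Lrrn4* stood at 212, 79.4 and 513 CPM and *Msln* at 285, 75.4 and 139 CPM. Spots with at least 10 mesothelium UMIs per 10000 were 29.4% and 9.51% of spots outside muscle in the controls and 50% in the KO section (limit set after the values were seen). Without the 20% of pooled spots richest in mesothelium RNA, 29 genes passed, 10 higher and 19 lower in the KO section. This left 266 of 340 and 312 of 326 spots in the controls and 313 of 448 in the KO section.

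Levels were also read spot by spot, to see whether a few spots carried the sums. For tendon matrix, the 10th percentile over spots was 18.9 and 20.7 UMIs per 10000 in the controls and 19.6 in the KO section, the median 42.8, 57.9 and 29.0, and the 90th percentile 160, 197 and 47.4. The 10th percentiles were thus close, while the 90th percentile of the KO section lay below the median of control 2. How much central tendon each section took in was not tested. Spots at 100 or more numbered 101 of 340 in control 1 (29.7%, exact 95% interval 24.9 to 34.9), 117 of 326 in control 2 (35.9%, 30.7 to 41.4) and 5 of 448 in the KO section (1.12%, 0.363 to 2.59). For collagens, spots at 1000 or more numbered 65, 111 and 2. Small leucine-rich proteoglycans were lower over the whole range, with 10th percentiles of 21.6, 24.9 and 12.1 and medians of 41.9, 50.6 and 21.0. Macrophage markers reached 20 or more in 10.6% and 10.7% of spots in the controls and in 29.9% in the KO section. These limits were set after the values were seen, and spots of 1 section are not replicates.

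**Figure D4:**
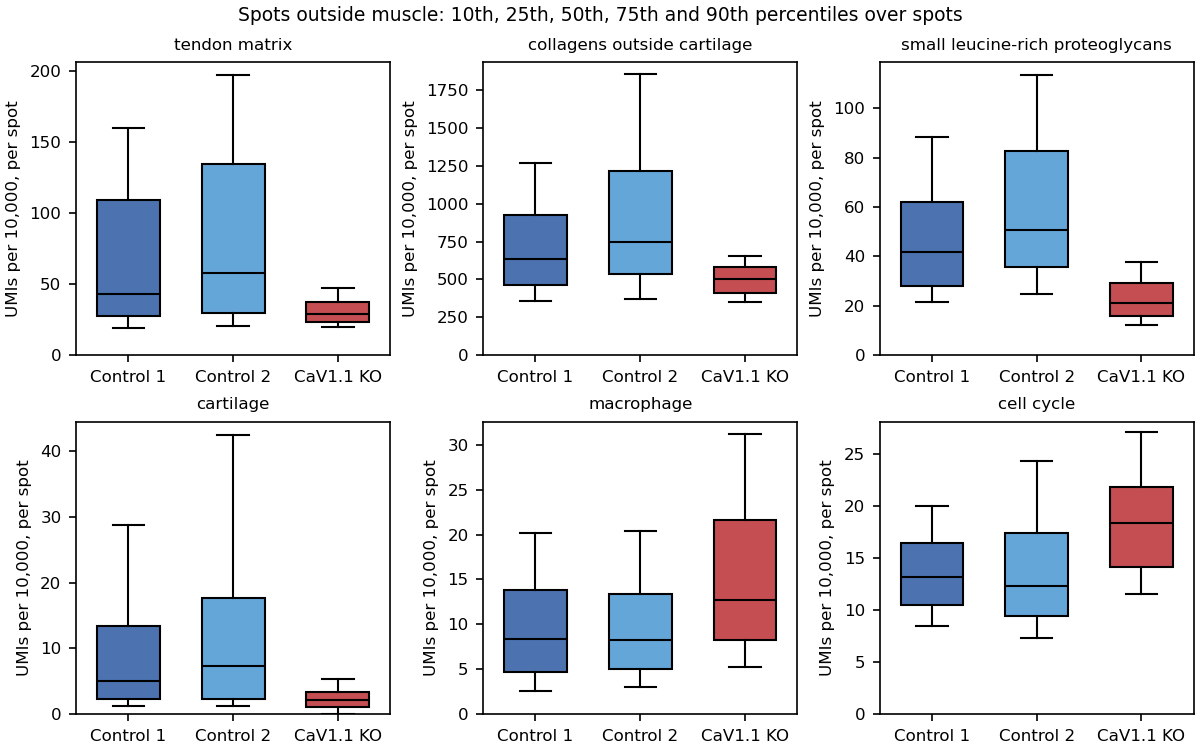
UMIs per 10000 of 6 gene lists over the spots outside muscle of each E18.5 section; the box spans the 25th to 75th percentile with the median as a line, and whiskers reach the 10th and 90th percentiles. In tendon matrix the 90th percentile is 160 and 197 in the controls and 47.4 in the KO section, while the 10th percentiles are 18.9, 20.7 and 19.6.

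Tendon values were also read by distance from muscle. Spots directly beside a muscle spot numbered 196, 158 and 243, those 2 steps away 77, 88 and 110, and those 3 or more steps away 67, 80 and 95. Beside muscle, tendon matrix summed to 8118 and 9215 CPM in the controls and to 3019 CPM in the KO section. At 3 or more steps it was 5621, 5338 and 3748 CPM. Both controls were higher beside muscle than far from it, whereas the KO section was lower beside muscle than far from it. Collagens followed the same order, at 79260, 97750 and 46603 CPM beside muscle and 65707, 64421 and 54528 CPM at 3 or more steps. The controls did not fall steadily, since their collagens were highest at 2 steps (81119 and 104222 CPM). Tendon matrix at 2 steps stood at 7600 CPM in control 1 and 9756 CPM in control 2, where it was highest. With the spots beside muscle left out, 6 genes passed the test, 1 higher and 5 lower, on fewer spots.

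**Figure D5:**
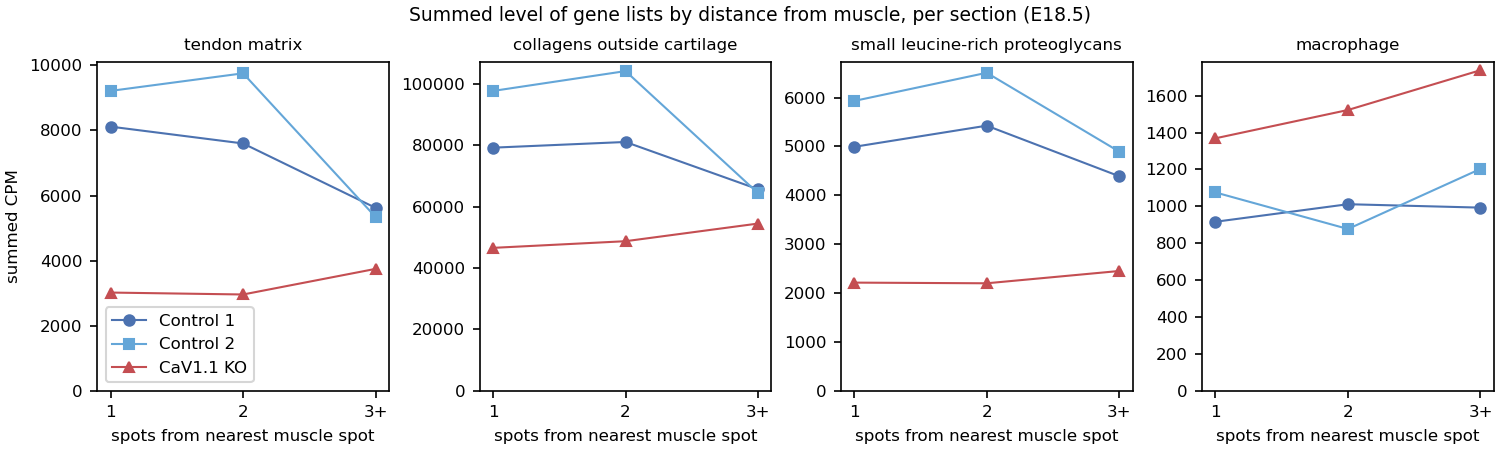
Summed CPM of 4 gene lists outside muscle by distance from the nearest muscle spot (1, 2, or 3 and more steps of 100 µm), 1 line per E18.5 section. Tendon matrix beside muscle is 8118 and 9215 CPM in the controls and 3019 CPM in the KO section, and the sections lie closer at 3 or more steps (5621, 5338 and 3748 CPM).

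The same genes were set beside their values in muscle spots. In muscle, tendon matrix summed to 1384 and 1609 CPM in the controls and to 1373 CPM in the KO section, and small leucine-rich proteoglycans to 1049, 1171 and 1070 CPM. These sums, which are not scaled by TMM, were close in muscle, while outside muscle the KO section was below both controls. Gene by gene and scaled by TMM, the median log2 fold change in muscle was −1.21 for tendon matrix, against −2.84 outside. For small leucine-rich proteoglycans it was −0.71, against −1.62 outside. Sums and medians thus differ in scaling too. Over all genes, the KO effect outside minus that in muscle had a median of 0.09 with TMM and −0.33 with library totals. How much of the gap between sums and medians comes from scaling was not tested. In muscle 26.5% of 14768 genes passed the test, and 59 of the 69 genes called outside muscle passed there too. Whether the effect of the KO differed between both regions was tested with the section as a block, and 11 of 15333 genes (0.0717%) passed, 6 with the greater log2 fold change outside muscle (0.0391%) and 5 with the smaller (0.0326%). None of them is a tendon matrix gene. *Fabp5*, which carries fatty acids, was called outside muscle and in this test. It stood at 168, 154 and 409 CPM outside muscle and at 141, 135 and 146 CPM in muscle, and the difference between both effects was 1.35 (adjusted p = 0.0237).

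At E14.5 the KO section was compared with 3 control sections in the same way, and 1 gene passed (0.00688% of 14541). *Tnmd* had a log2 fold change of −4.43 there without passing, and the median of tendon matrix was −1.07, while cartilage had a median of 0.16. The Y-linked genes had a median of −8.53, so sex was not balanced at E14.5 either. In the β-cat cKO section at E18.5, compared with the same 2 controls as the KO section, 367 genes passed (2.52%), 310 higher (2.13%) and 57 lower (0.392%). Lung and gut epithelium genes summed to 767 CPM outside muscle in the cKO section, against 39.0 and 16.4 CPM in the controls. Smooth muscle and pericyte genes summed to 3061 CPM there, against 1169 and 1623 CPM. The part of such tissue in the counts was not tested. *Kera* stood at 42.7 CPM, *Col2a1* at 78.5 CPM and *Postn* at 1703 CPM in the cKO section, between the KO section and the controls in each case. Tendon matrix there had a median of −1.48 and cartilage one of −2.62. Other lists did not lie between the KO section and the controls. Tendon regulators had a median of −0.85 in the cKO section against −0.54 in the KO section, and blood endothelium −0.79 against −0.62. Since the mutant sections share their controls, these values are not independent of those above. Beside *Scx*, *Mkx*, *Thbs4*, *Aspn*, *Dcn*, *Lum*, *Col1a1*, *Col3a1*, *Ltbp2*, *Pdgfra*, *Cd34*, *Col1a2*, *Ccn1*, *Ccn2* and *Axin2*, the genes *Has2*, *Cd44*, *Ankrd2*, *Smtnl1*, *Fhl1* and *Myh4* were chosen for mention after their values were seen.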

How the data were processed

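Visium FFPE probe libraries were analysed from 8 en face sections of embryonic mouse diaphragm, 1 per embryo, of which 3 carry the comparison. The authors deposited raw UMI counts per gene and spot, made with Space Ranger (2.0.1 for E18.5, and 2.0.0 or 2.0.1 for E14.5, per the file headers) on mm10 with probes for 19465 genes, without normalization; Seurat, named in the submitters' processing notes, gave none of these values. Moran's I tables and images were not used. The members and the gene lists were chosen with earlier results of these data known.

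Counts were summed per section over the spots outside muscle (Otsu threshold over 256 bins) and tested in edgeR 4.0.16 (R 4.3.3; filterByExpr, TMM, quasi-likelihood F test, Benjamini-Hochberg adjustment over all genes tested, called under 0.05) in 1 fit of 8 sections and 5 groups with 3 residual degrees of freedom. The 9 genes of the rule, *Alb* and *Ahsg* were left out. An exact permutation test of 1 section against 2 cannot go below 1 in 3, so none was used. Total counts per E18.5 section were 82859104 (control 1), 69837233 (control 2) and 23949267 (KO). P-values rest on the spread between control embryos of the same age. Most residual degrees of freedom come from the E14.5 controls, and groups of 1 section add none. Muscle spots were tested alike, and the difference between regions by a region-by-group term with the section as a block. The scripts were tested on simulated data.

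Genes named are, leaving out muscle, erythrocyte, hepatocyte and sex-linked lists, the 12 called genes of largest rise and the 12 of largest fall with mean log2 CPM of at least 5 and a higher level outside than in muscle, up to 4 called members of each pathway list (or its most abundant until 2 are named), the 3 most abundant of each marker list, genes called by both fits, and *Cacna1s*. A gene that the rule names is not reported here. Alternatives were DESeq2 1.42.0, other scaling, no filter, each control left out, other thresholds and spots without tissue-rich areas. Leaving out hepatocyte-rich spots was added after seeing the data. Gene positions are those of GENCODE vM21, and promoters those of RefSeq.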

Additional observations from a re-analysis of the deposited data

Results flagged for a closer look

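Outside muscle and in muscle of the same sections, 11 genes had a KO effect that differed by the test of the difference itself (edgeR's quasi-likelihood test of the region-by-group term, Benjamini-Hochberg adjusted p under 0.05), each given as the log2 fold change outside muscle minus that in muscle. In 5 of them the effect outside muscle was the lower: *Olfml2b* (−1.68, adjusted p = 0.0203), *Itgbl1* (−2.08), *Slit3* (−1.76), *Nt5e* (−2.36) and *Cyp1b1* (−1.58), which are genes of matrix, guidance, nucleotide breakdown and oxidation. *Olfml2b*, an olfactomedin matrix protein, stood outside muscle at 305 and 403 CPM in the controls and at 115 CPM in the KO section, and in muscle at 49.7, 69.2 and 65.5 CPM. *Itgbl1*, a secreted relative of integrins, stood outside muscle at 128, 221 and 59.0 CPM and in muscle at 8.40, 17.2 and 19.0 CPM. For *Cyp1b1* the difference came from muscle, where it rose (8.44, 10.5 and 24.7 CPM), while outside muscle it stood at 53.2, 73.8 and 52.2 CPM.

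In the other 6 the difference had the opposite sign: *Bche* (2.38, adjusted p = 0.0203), *Myl9* (1.76), *Col26a1* (1.58), *Hdac9* (1.51), *Ccdc141* (1.501) and *Fabp5* (1.35). *Bche*, butyrylcholinesterase, stood outside muscle at 38.3, 28.9 and 80.8 CPM, where it did not pass the test (adjusted p = 0.0708), and in muscle at 94.0, 89.3 and 45.3 CPM, where it fell. *Myl9*, a myosin light chain of smooth muscle and other contractile cells, stood outside muscle at 245, 241 and 158 CPM and in muscle at 364, 340 and 71.4 CPM. None of the 11 passed without E14.5 control 3. That section holds 1150475 UMIs outside muscle, the fewest of the 8.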

How the results depend on the processing

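No paired analysis was possible, because there is 1 KO section at E18.5 and the labels record no pairing of sections. Of the 69 genes called outside muscle, all kept their direction under all 21 alternatives, and *Acan* and *Kera* passed the test in each. Other calls were lost in part of the alternatives. *Postn* and *Adm* did not pass in 11 of the 21, and *Fbn1* and *Oasl2* did not pass in 10. *Tnmd* and *Thbs4*, which did not pass in the main fit, passed in 10 of the 21. Every alternative holds the KO section from which the 69 were picked, so kept directions are no independent support. The count of called genes was 118 with library totals, 398 with DESeq2's Wald test, 208 with no filter on low counts, 126 with the lowest threshold in all 3 sections, 6 without spots beside muscle, 16 with no liver limit, 28 without cartilage-rich, 29 without mesothelium-rich and 107 without erythrocyte-rich spots, and 142 with each spot weighted equally. It was 71 with DESeq2's size factors, 95 with only the E18.5 sections (1 residual degree of freedom), 61 with at least 5000 UMIs a spot, 100 with a liver limit of 0.1%, 101 without smooth-muscle-rich and 91 without hepatocyte-rich spots. With 1 control section left out it ran from 2 (without E18.5 control 1) to 302 (without E14.5 control 1). For the difference between regions the count of 11 was 470 with library totals, 511 with no filter, 1 without spots beside muscle, 0 with no liver limit (where 2913 genes had an unadjusted p under 0.05 in edgeR) and 22 with a limit of 0.1%, and with 1 control left out it ran from 0 (without E14.5 control 3, 2958 genes at an unadjusted p under 0.05) to 713 (without E18.5 control 1). The cause of these shifts was not tested. Signs were followed for the genes named by the rule and a few more, not for all genes tested. Among those followed, signs turned only in genes that did not pass the test. Log2 fold changes of turned sign were, with library totals, *B2m* 0.067, *Lpl* 0.11 and *Ngfr* 0.11. With the lowest threshold they were *Ccna2* −0.059, *Cxcl12* −0.25, *Col9a2* −0.16, *Lpl* 0.14 and *S100a9* −0.40. Without spots beside muscle they were *Fgfrl1* −0.21, *Ccna2* −0.015, *Cxcl12* −0.32, *Krt19* −0.10 and *Pdpn* −0.0070, and with 5000 UMIs *Cxcl12* −0.0048 and *S100a9* −0.061. With no liver limit they were *Fgfrl1* −0.022, *Ccna2* −0.021, *Pdpn* −0.0086, *Cebpa* 0.27, *Hbb-bs* 0.15, *Hba-a2* 0.54 and *Hbb-bt* 1.06, and with the limit of 0.1% *S100a9* −0.78 and *Krt5* 0. Leaving out cartilage-rich spots gave *Flna* −0.0034, *Cxcl12* −0.12, *Krt19* −0.087 and *S100a9* −0.26, mesothelium-rich *Ccna2* −0.017, *Msln* 0.35 and *Ngfr* 0.17, smooth-muscle-rich *S100a9* −0.0067, erythrocyte-rich *Pdpn* −0.0078, *S100a9* −1.21 and *Ngfr* 0.046, and hepatocyte-rich *Cxcl12* −0.061, *S100a9* −1.39 and *Krt5* 0. With spots weighted equally they were *Fgfrl1* −0.053, *Ccna2* −0.042 and *Ngfr* 0.21. With 1 control section left out, genes whose sign turned ranged as follows: *Ccna2* from −0.060 to 0.12, *Cxcl12* from −0.55 to 1.05, *Fgfrl1* from −0.12 to 0.22, *Krt14* from −0.18 to 1.20, *Krt19* from −0.39 to 1.06, *Lpl* from −0.19 to 0.0054, *Msln* from −1.03 to 0.88, *Ngfr* from −0.31 to 0.19, *Pdpn* from −0.23 to 0.41, *S100a9* from −0.56 to 1.19, *Sulf1* from −0.83 to 0.22 and *Zyx* from −0.067 to 0.32.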
